A study of Rattus norvegicus with 6 samples.

Results

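Long noncoding RNA features were examined in the insulin-secreting rat insulinoma line INS-1E, in 3 untreated libraries and 3 libraries from cells given uric acid for 24 hours. Both groups are the same line; the labels used here give no uric acid concentration, no vehicle and no genotype, and an insulinoma line is a tumour line, not islet tissue. A feature, meaning one row of the deposited gene table, was taken as long noncoding if its transcript type was lincRNA, antisense or processed_transcript and not protein_coding. The table holds 805 such features among 19289, of which 689 are lincRNA, 64 processed_transcript, 42 antisense and 10 processed_transcript together with a pseudogene or retained-intron type. The 196 whose mean over the 6 libraries was at least 1 FPKM (fragments per kilobase, normalized by the authors for the depth of each library) are described below, and are called the long noncoding features.

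Long noncoding RNAs are transcripts longer than small RNAs that are not known to be translated. Many are spliced, capped and polyadenylated like messenger RNA, while others stay in the nucleus, host small nucleolar RNAs (snoRNAs) in their introns, or start from the opposite side of a coding gene's promoter. Their best known roles are local, on the transcription of a neighbouring gene, or structural, as the core of nuclear bodies such as paraspeckles. As a class they are shorter and less abundant than coding transcripts. Because the RNA was selected with oligo-dT, transcripts without a poly(A) tail are poorly captured.

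The features were chosen by their mean FPKM over all 6 libraries, together with the transcript type, so their levels are a description and carry no test. Their median was 3.16 FPKM, against 10.4 FPKM for all 12460 features at or above the same minimum, and 28 of the 196 reached 10 FPKM. Their median genomic span was 5471 bases, against 20380 bases for the tested protein-coding features. The 3 nearest above the minimum had means of 1.01, 1.02 and 1.02 FPKM, and the 3 nearest below it had 0.975, 0.971 and 0.966 FPKM. Among the 609 features below the minimum, 334 were under 0.1 FPKM, none was listed at 0 in every library, and 181 were above 0 in every library. Of the 196, 11 had an untreated mean under 1 FPKM and so passed through the uric acid group, and 2 passed through the untreated group; none of these 13 was called in the comparison below.

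Some of these rows are noncoding by type only. For 56 of the 196 features the description or the RefSeq symbol names a protein, and 26 carry a symbol that RefSeq lists as protein-coding, among them Snx3, Smarce1, Dkc1, Trrap, Taf1, Top2b and Smg1. None of these 26 symbols has another row in the table, so the noncoding row is that gene's only value. The other 140 name no protein, 127 of the 196 features have no description at all, and 9 symbols are RefSeq lncRNAs. A row that names no protein may still belong to a coding gene, which was not tested. Coordinates below are those of the deposited table; its genome build, and whether counting used the strand, are not given in the sources used here, so values of overlapping and antisense features are uncertain.

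Summed estimated counts ran from 41191819 to 59092982 per library. The labelled line was checked on its markers: all 9 beta cell markers were at or above 1 FPKM and summed to between 74180 and 88160 FPKM in the untreated libraries and between 72900 and 85240 FPKM in the uric acid libraries. Acinar, endothelial, leukocyte and pancreatic polypeptide cell markers that are listed stayed under 0.6 FPKM in every library, the listed fibroblast markers Col1a1 and Dcn reached at most 1.01 and 0.08 FPKM, the alpha cell hormone gene Gcg averaged 8.80 FPKM, and of the 2 duct markers Krt7 averaged 183 FPKM and Krt19 0.0073 FPKM. In bulk RNA, fewer cells with a transcript and less of it per cell cannot be told apart. Whether the replicates were separate cultures is not stated, so p-values here cover only the spread among the 6 libraries, which may be technical.

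The comparison asks which long noncoding RNAs differ in level after 24 hours with uric acid. With edgeR's quasi-likelihood test, fitted over all 12460 features and adjusted by Benjamini-Hochberg over all of them, 8 of the 196 features were called at an adjusted p under 0.05, 7 higher and 1 lower in uric acid. That is 4.08%, where 7.98% of all tested features were called, 4.99% higher and 2.99% lower. The called features were AABR07059380, AABR07060519, AABR07033564, LOC102549726, AABR07002674, AC108574 and the processed transcript of Plekha6, which were higher, and AABR07047256, which was lower. At an unadjusted p under 0.05 there were 45 (23.0%, all features 25.7%), and the 2 groups of libraries did not overlap in FPKM for 48, 31 of them higher and 17 lower (24.5%, all features 31.0%). The median log2 fold change, uric acid over untreated, was 0.053, with quartiles of -0.16 and 0.27, and that of all tested features was 0.0013.

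The count depended on the fit. DESeq2 called 21 of the 196, 15 higher and 6 lower (all features 14.1%, with 7.77% higher and 6.3% lower), including all 8 above. When edgeR was refitted with an untreated library left out, 3 features were called higher without library 1 (2.04% of all tested features), 2 without library 2 (1.32%) and 3 without library 3 (2.54%). Leaving out a uric acid library gave 2 without library 1 (1.8%), 6 without library 2 (3.93%) and 12 without library 3 (5.67%). Lower calls numbered 0 without untreated library 1, 2 or 3 (0.835%, 0.53% and 1.44% of all) and without uric acid library 1 or 2 (0.602% and 2.17%), and 2 without uric acid library 3 (3.74%). The calls over all features thus also fell in 5 of these 6 fits.

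**Figure D1:**
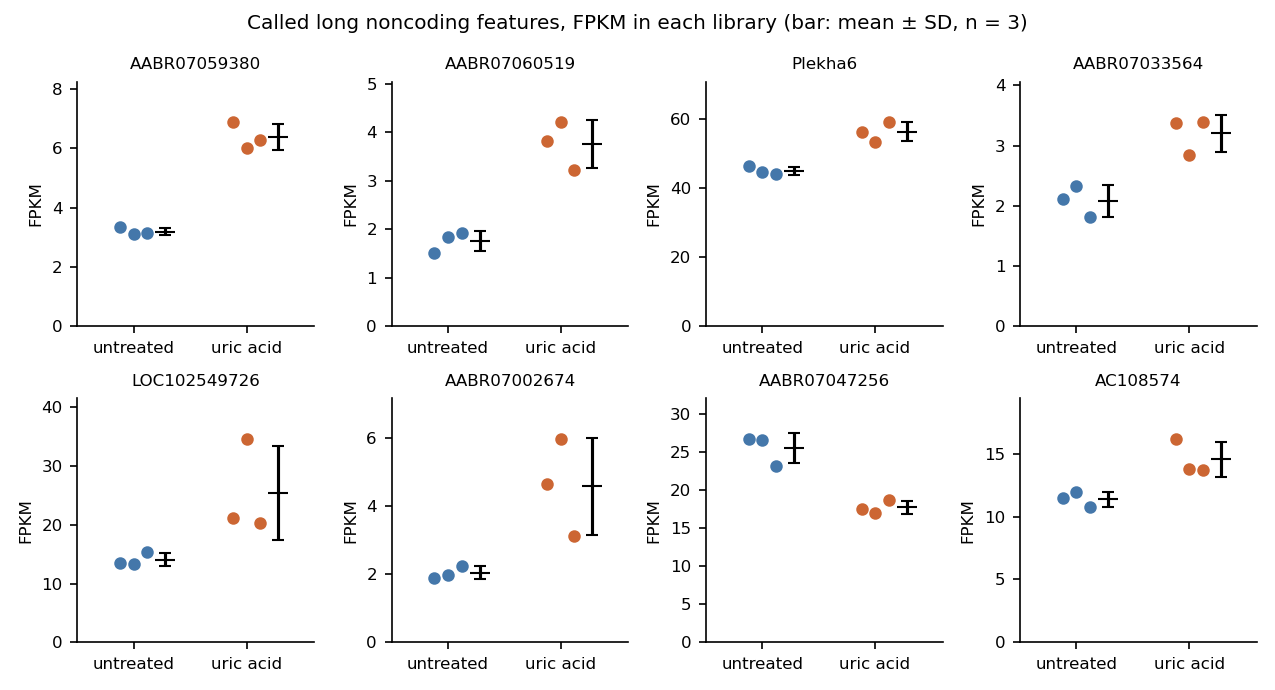
FPKM of the 8 called long noncoding features in each library, 3 untreated (blue) and 3 uric acid (orange), with the mean and SD of each group beside the points; every axis starts at 0. The groups do not overlap in any of the 8 panels, and uric acid library 2 stands above the other libraries for LOC102549726 at 34.7 FPKM.

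AABR07059380 (ENSRNOG00000055278) is a lincRNA on the minus strand of chromosome 4, from 16946938 to 16953847. Its level was 3.33, 3.11 and 3.13 FPKM in the untreated libraries and 6.89, 6.01 and 6.28 FPKM in the uric acid libraries. All 3 treated libraries were thus about double the untreated ones, with little spread in either group (3.19 ± 0.12 against 6.39 ± 0.45 FPKM, SD, n = 3 each). The log2 fold change was 1.0 ± 0.09 (SE; adjusted p 0.000532, the smallest of the 196). The feature lies inside the span of Pclo, which encodes piccolo, a scaffold protein of secretory release sites, on the same strand. Pclo had a log2 fold change of -0.29 ± 0.23 (adjusted p 0.466), so the row inside it was higher where the surrounding gene was not called in either direction. Reads of the shared strand can belong to either row, and their part in the result was not tested.

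AABR07060519 (ENSRNOG00000059013) is a lincRNA of chromosome 4, minus strand, from 77413672 to 77446624. It was at 1.52, 1.83 and 1.92 FPKM untreated and at 3.82, 4.21 and 3.23 FPKM with uric acid, so that the lowest treated library stood well above the highest untreated one. Its log2 fold change was 1.09 ± 0.17 (adjusted p 0.00657). The nearest coding genes on either side are Ezh2, the methyltransferase of Polycomb repressive complex, 66661 bases away (0.04 ± 0.07, adjusted p 0.78), and Pdia4, a disulfide isomerase of the endoplasmic reticulum, 24012 bases away (-0.35 ± 0.12, adjusted p 0.101). AABR07059380 and AABR07060519 were the 2 features called under all 14 alternative fits that include them, with adjusted p up to 0.00762 and 0.0395.

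AABR07002674 (ENSRNOG00000059266), a lincRNA on chromosome 1, minus strand, from 80190219 to 80191618, had the largest fitted rise of the called features. It stood at 1.9, 1.99 and 2.25 FPKM untreated and at 4.63, 5.97 and 3.13 FPKM with uric acid. The treated libraries spread widely (4.58 ± 1.42 FPKM, against 2.05 ± 0.18 FPKM untreated), but none came down to the untreated level. The log2 fold change was 1.15 ± 0.28 (adjusted p 0.0372), and the call was lost without untreated library 1, 2 or 3 (adjusted p 0.126, 0.148 and 0.0773) and without uric acid library 1 or 2 (0.11 and 0.0848). Its nearest neighbours, Vasp, a regulator of actin assembly, 4337 bases away, and Rtn2, a reticulon of the endoplasmic reticulum, 3914 bases away, had log2 fold changes of -0.14 ± 0.07 and -0.08 ± 0.08 (adjusted p 0.235 and 0.544). Further out, Eml2, a microtubule-binding protein, was higher by 0.60 ± 0.15 at 71207 bases, and Ppp1r13l, an inhibitor of p53 family proteins, was lower by a log2 fold change of -0.60 ± 0.14 at 88088 bases, so called genes of this interval went both ways.

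LOC102549726 (ENSRNOG00000054031), a RefSeq lncRNA on chromosome 20 within the major histocompatibility region, from 4871264 to 4873982 on the minus strand of the table, was at 13.5, 13.3 and 15.4 FPKM untreated and at 21.2, 34.7 and 20.3 FPKM with uric acid. The 3 treated libraries were all above the untreated ones, and library 2 alone was far above the other treated libraries. Its log2 fold change was 0.85 ± 0.19 (adjusted p 0.031). Leaving out untreated library 1, 2 or 3 gave an adjusted p of 0.111, 0.135 and 0.0646, and leaving out uric acid library 1 gave 0.0562. Without uric acid library 2, the highest, the log2 fold change was 0.56 in place of 0.85, and the feature was still called (adjusted p 0.0132).

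The span of LOC102549726 holds 2 snoRNA rows on its strand, Snord52 and Gm25744, which makes it one of 4 long noncoding features that contain a snoRNA. Host transcripts of snoRNAs often begin with a run of pyrimidines, the 5′ terminal oligopyrimidine motif of genes for the translation machinery. For this reason its RefSeq start is shown, from GRCr8 chromosome 20, 3880958 to 3881257, plus strand of that assembly (the table's row is on the minus strand of its own build). The first 50 transcribed bases are in capitals, after 250 bases of promoter in lower case.
LOC102549726: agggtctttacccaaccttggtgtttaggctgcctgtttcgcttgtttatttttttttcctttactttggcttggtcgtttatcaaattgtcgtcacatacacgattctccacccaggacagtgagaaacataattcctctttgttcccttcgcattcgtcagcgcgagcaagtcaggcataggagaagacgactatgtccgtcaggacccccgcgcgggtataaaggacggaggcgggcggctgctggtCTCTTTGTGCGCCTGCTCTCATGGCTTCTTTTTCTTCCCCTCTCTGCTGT
Pyrimidines make up 82.0% of the capitals, where the median over 33469 RefSeq promoter windows is 48.0% and 0.245% of them are at or above this value; the measure was chosen after this sequence was seen, and is a description of the letters only.

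The small RNAs inside LOC102549726 were barely captured. Snord52, the box C/D snoRNA, averaged 0.028 FPKM over the 6 libraries. Gm25744 averaged 1.37 FPKM with a log2 fold change of -0.02 ± 0.56 (adjusted p 0.991), an error too wide to place it beside the host's rise.

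The neighbour of LOC102549726 on the higher side went the other way. Hspa1b, which encodes the inducible cytosolic chaperone Hsp70, lies 3342 bases away on the same strand and was at 3.18, 3.09 and 2.94 FPKM untreated and 1.86, 1.54 and 2.17 FPKM with uric acid. Its log2 fold change was -0.73 ± 0.16 (adjusted p 0.0292), and it has a near-identical copy, so its reads are hard to assign. On the lower side, Ltb, the gene of the cytokine lymphotoxin beta, had 0.35 ± 0.26 (adjusted p 0.433). Nfkbil1, which encodes a nuclear protein related to NF-kappa-B inhibitors, lies 32796 bases away and was higher by 0.57 ± 0.13 (adjusted p 0.031). The row also overlaps the long spans of the class I genes RT1-CE1, RT1-CE4 and RT1-CE7, with log2 fold changes of -0.01 ± 0.35, 0.20 ± 0.13 and 0.18 ± 0.13, none of them called.

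AABR07033564 (ENSRNOG00000059467), typed lincRNA on chromosome 11, plus strand, from 27598719 to 27611811, is described in the table as resembling BACH1, a transcription repressor of haem and oxidant response genes, so its noncoding type is in doubt. It had 2.11, 2.33 and 1.81 FPKM untreated and 3.38, 2.85 and 3.39 FPKM with uric acid, the lowest treated library above the highest untreated one. The log2 fold change was 0.62 ± 0.13 (adjusted p 0.0224). It missed the threshold without untreated library 1, 2 or 3 (0.0791, 0.0574 and 0.0672), without uric acid library 1 (0.0942), and with limma on log2(FPKM + 1) (0.0568).

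AC108574 (ENSRNOG00000057903), a lincRNA of chromosome 11, plus strand, from 60043639 to 60051725, was at 11.4, 11.9 and 10.7 FPKM untreated and 16.2, 13.7 and 13.7 FPKM with uric acid. The groups were apart by less than the distance between treated library 1 and the other treated libraries. The log2 fold change was 0.35 ± 0.09 (adjusted p 0.0417), and was not called without untreated library 1, 2 or 3 (0.121, 0.127 and 0.116) or uric acid library 1 (0.151), or with limma on log2(FPKM + 1) (0.0667). Abhd10, a mitochondrial hydrolase gene that starts 2683 bases beyond it on the same strand, had 0.17 ± 0.19 (adjusted p 0.608).

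AABR07047256 (ENSRNOG00000059459), a lincRNA of chromosome 5, plus strand, from 25339368 to 25341042, was the only called feature that was lower. Its level was 26.8, 26.6 and 23.2 FPKM untreated and 17.6, 17.1 and 18.7 FPKM with uric acid, so every treated library was below every untreated one. The log2 fold change was -0.52 ± 0.13 (adjusted p 0.04), and no fit with 1 library left out kept the call, the adjusted p running from 0.0504 without uric acid library 3 to 0.166 without untreated library 2. Gem, a small GTPase that restrains voltage-gated calcium channels, lies 8886 bases further along the same strand and had -0.01 ± 0.11 (adjusted p 0.98), and Rbm12b on the other side had 0.02 ± 0.13 (adjusted p 0.957).

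Plekha6 (ENSRNOG00000002907), on chromosome 13 from 50555454 to 50578720, minus strand, is typed processed_transcript here and protein-coding in RefSeq; it encodes a pleckstrin homology domain protein of cell junctions. It was at 46.3, 44.6 and 43.9 FPKM untreated and at 56.2, 53.4 and 58.9 FPKM with uric acid. The spread within each group was small for this abundant transcript, and the modest difference of 0.32 ± 0.06 on the log2 scale was called (adjusted p 0.0168). It was lost without untreated library 1, 2 or 3 (0.0522, 0.103 and 0.059) or uric acid library 1 (0.0743). Golt1a, a Golgi transport gene 5439 bases away, had 0.05 ± 0.16 (adjusted p 0.88).

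Some long noncoding features lay just above the threshold, at an adjusted p from 0.05 to 0.1. The closest were LOC102549506, described as resembling the ubiquitin ligase adaptor KLHL3 (0.53 ± 0.14, adjusted p 0.0506), and Eef1aknmt, a methyltransferase of translation elongation factor eEF1A (-0.36 ± 0.10, adjusted p 0.0546). No share of all tested features was taken for an estimated change of at least 2-fold. Such a change was estimated for 7 of the 196 features, and 3 of these were called. The other 4 were noisy or reached 0: AABR07051376, with -1.71 ± 1.05, was at 1.97, 2.04 and 1.02 FPKM untreated and listed at 0, 0 and 1.53 FPKM with uric acid.

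**Figure D2:**
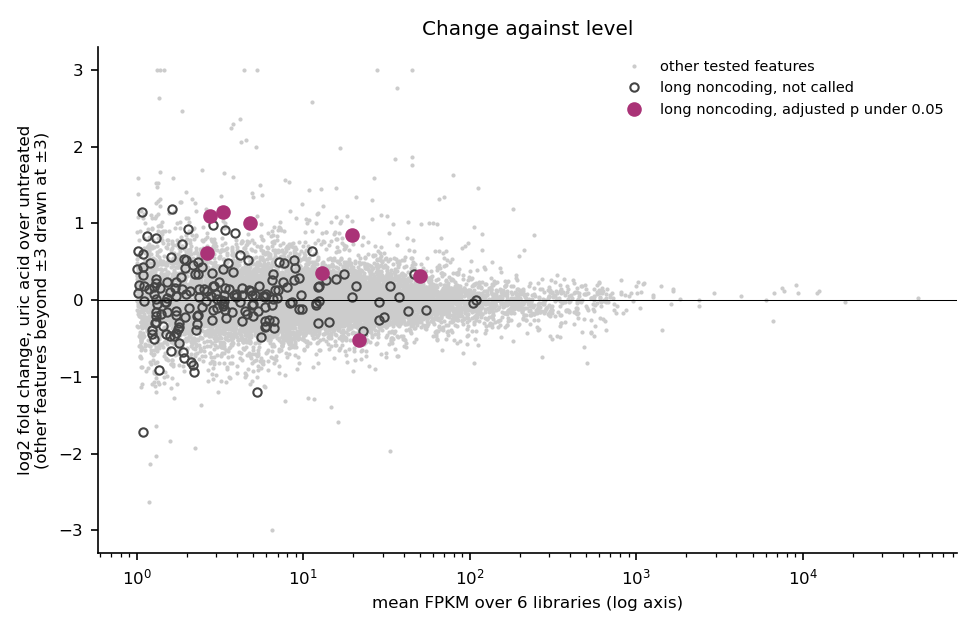
Log2 fold change (uric acid over untreated) against mean FPKM on a log axis for all tested features (grey; values beyond ±3 drawn at ±3), the long noncoding features not called (open circles) and the 8 called (filled). Most long noncoding features lie at the left, at a median of 3.16 FPKM, and 3 of the 4 called from 2 to 5 FPKM have a log2 fold change of about 1 or more.

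Precision followed level. The median SE of a log2 fold change was 0.209 for the long noncoding features and 0.113 for all tested features. From 1 to 2 FPKM none of 64 was called by edgeR, where 3.57% of all features of that level were. At an unadjusted edgeR p under 0.05 there were 5 of these 64 (7.81%, all 19.2%), and DESeq2 called 0 (all 91 of 1177). From 2 to 5 FPKM edgeR called 4 of 68 (5.88%, all 5.24%), and from 5 to 10 FPKM none of 36 (all 7.67%). Of these 36, 8 had an unadjusted edgeR p under 0.05 (22.2%, all 25.5%) and DESeq2 called 5 (all 366 of 2529). At 10 FPKM or more 4 of 28 were called (14.3%, all 9.91%). At each level the median SE of the long noncoding features was the larger, 0.302 against 0.243 from 1 to 2 FPKM and 0.102 against 0.088 at 10 FPKM or more.

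**Figure D3:**
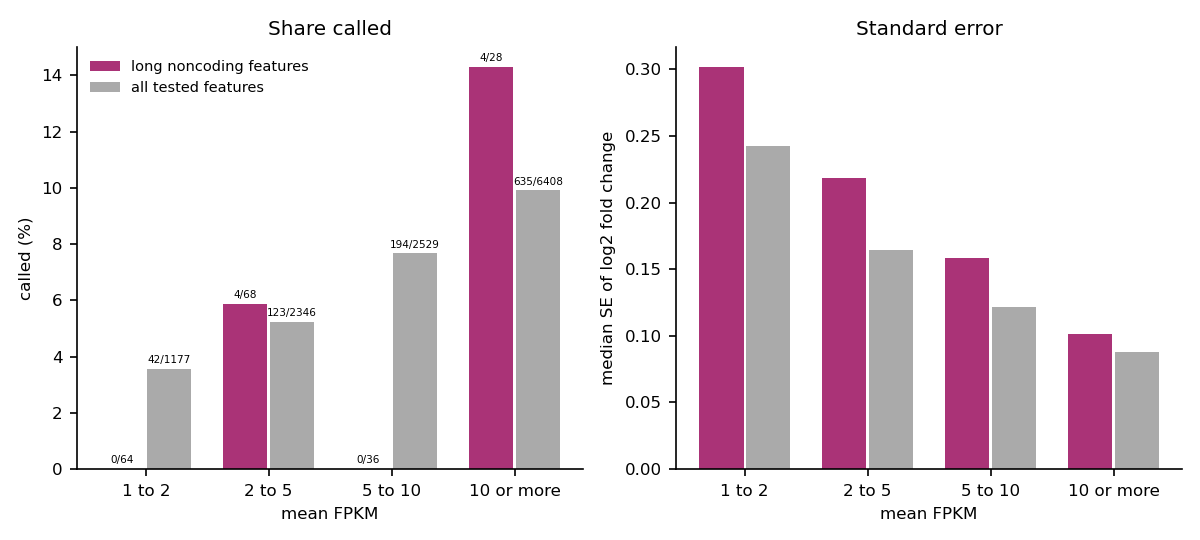
Left, the percentage called by edgeR in 4 classes of mean FPKM for the long noncoding features (purple) and all tested features (grey), with called over tested above each bar; right, the median SE of the log2 fold change in the same classes. The left bars are 0 in the classes from 1 to 2 and from 5 to 10 FPKM, and the SE of both groups falls with level.

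Of the 10 most abundant long noncoding features only Plekha6 was called. AABR07035839 (ENSRNOG00000046171), a processed_transcript of chromosome 12 with no description, led with 117, 107 and 104 FPKM untreated and 111, 95.5 and 122 FPKM with uric acid; the groups overlap throughout and the log2 fold change was 0.00 ± 0.09, with a 95% interval from -0.18 to 0.18. Tbl2, the nearest coding gene towards lower coordinates at 11859 bases on the same strand, was lower by a log2 fold change of -0.66 ± 0.10 (adjusted p 0.00517). Vps37d, the nearest towards higher coordinates at 31707 bases on the other strand, had 0.38 ± 0.11 (adjusted p 0.0646). The noncoding type of AABR07035839 rests on the table's label alone. Whether the row belongs to a coding gene was not tested. The next by level were Snx3, a sorting nexin of endosomes (102, 108 and 109 FPKM untreated; 100, 110 and 103 FPKM with uric acid; -0.03 ± 0.07), and Rtl8a, a gene derived from a retrotransposon (53.1, 55.1 and 62.5 FPKM; 51.6, 48.7 and 55.4 FPKM; -0.13 ± 0.09), in both of which the groups overlap.

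Below Plekha6 in level came LOC100912578, described as resembling the mitochondrial chaperone mortalin, at 44.5, 45.8 and 31.1 FPKM untreated and 49.8, 59.7 and 44.7 FPKM with uric acid (0.35 ± 0.15, adjusted p 0.185). Its untreated library 3 was far below the other untreated libraries. Smarce1, a subunit of the SWI/SNF chromatin remodelling complex, was at 46.1, 43.3 and 44.3 FPKM untreated and 40.0, 41.5 and 39.5 FPKM with uric acid (-0.15 ± 0.06, adjusted p 0.172), and AC098547, described as resembling the chromatin reader BRD2, was at 31.8, 30.7 and 30.4 FPKM and 35.3, 36.7 and 34.2 FPKM (0.19 ± 0.06, adjusted p 0.0919). In Smarce1 and AC098547, and in Dkc1 below, the groups did not overlap, yet the difference did not pass the test. The groups did not overlap for 31.0% of all tested features. AC134224 (ENSRNOG00000062127), a lincRNA with no description, was at 37.6, 39.1 and 34.1 FPKM untreated and 40.6, 39.2 and 34.7 FPKM with uric acid, with overlapping groups (0.05 ± 0.08, adjusted p 0.763). Dkc1, the pseudouridine synthase of box H/ACA snoRNPs, was at 29.7, 33.3 and 35.9 FPKM and 28.3, 29.3 and 27.4 FPKM (-0.22 ± 0.09, adjusted p 0.152), and AABR07053749, with no description, at 28.7, 27.0 and 30.6 FPKM and 30.9, 27.7 and 26.2 FPKM (-0.03 ± 0.10). A protein is named for 7 of the 10 most abundant features.

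**Figure D4:**
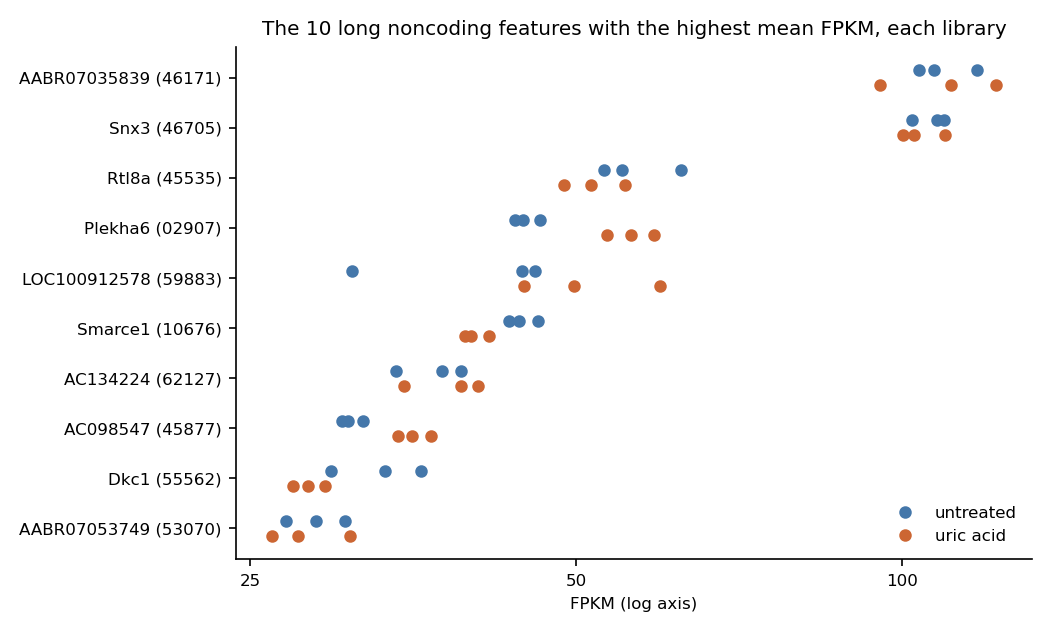
FPKM in each library, on a log axis, of the 10 long noncoding features with the highest mean, untreated in blue and uric acid in orange; the number after each name is the end of its Ensembl identifier. Plekha6 shows the called difference, and AABR07035839 and Snx3 lie near 100 FPKM in both groups.

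Few textbook lncRNAs could be followed by name. Of a list of 55 known lncRNAs and structural RNAs, 2 symbols are in the table: Tug1, and Rpph1, the RNA of ribonuclease P, at 0.087 FPKM. Tug1 (ENSRNOG00000051135), a conserved lncRNA first described in the taurine-treated retina, was at 12.01, 11.4 and 11.3 FPKM untreated and at 13.5, 12.7 and 12.8 FPKM with uric acid. Each treated library was above each untreated one, but by a log2 fold change of only 0.17 ± 0.06 (95% interval 0.04 to 0.29; adjusted p 0.147), which was not called. Kantr, a transcript named for its place beside Kdm5c, was at 1.61, 1.57 and 1.65 FPKM untreated and 2.06, 2.43 and 2.48 FPKM with uric acid (0.52 ± 0.23, adjusted p 0.186), again without overlap and without a call. The log2 fold changes of the remaining 6 RefSeq lncRNA symbols ranged from -0.91 ± 0.45 for LOC108351370 to 0.48 ± 0.32 for LOC100910237.

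An unnamed feature can sit where a known lncRNA lies in other mammals. LOC108349594, a lincRNA of chromosome 1, ends 2233 bases from Chd2 and precedes it on the same strand, the place that CHASERR, a repressor of CHD2, has in human and mouse. It was at 6.82, 6.95 and 6.49 FPKM untreated and 7.95, 7.21 and 6.97 FPKM with uric acid (0.13 ± 0.10, adjusted p 0.463), while Chd2, a chromatin remodeller, was higher by 0.50 ± 0.07 (adjusted p 0.00463). This pair was picked after its values were seen.

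The snoRNA hosts did not share a direction. Besides LOC102549726, snoRNA rows of the same strand lie within Taf1, a subunit of the general transcription factor TFIID (-0.35 ± 0.15, adjusted p 0.171), Trrap, a scaffold of histone acetyltransferase complexes (-0.28 ± 0.12, adjusted p 0.18), and LOC100912181, which is uncharacterized (0.42 ± 0.17, adjusted p 0.155). Taf1 was at 7.22, 7.07 and 5.50 FPKM untreated and 5.80, 4.10 and 5.65 FPKM with uric acid, and Trrap at 17.6, 15.6 and 13.4 FPKM and 13.0, 10.7 and 14.6 FPKM, with overlapping groups in both. LOC100912181 was at 8.31, 7.66 and 6.97 FPKM untreated and 9.49, 12.6 and 8.63 FPKM with uric acid, each treated library above each untreated one. The snoRNA inside it, AC118772, was at 3.23, 0.567 and 2.78 FPKM untreated and 4.56, 5.16 and 4.01 FPKM with uric acid (log2 fold change 1.01, adjusted p 0.24), also without overlap and without a call.

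By type, 7 of 147 lincRNAs, 1 of 35 features typed processed_transcript alone and 0 of 8 processed transcripts with another type were called (4.76%, 2.86% and 0.0%, all features 7.98%). The last group had 4 at an unadjusted p under 0.05 (all features 25.7%) and 2 called by DESeq2 (14.1%). Of the 6 antisense features none was called (edgeR), and none had an unadjusted p under 0.05 or was called by DESeq2. Their log2 fold changes ran from -0.16 ± 0.33 for AC108572 to 0.05 ± 0.27 for AABR07067950, and the best measured, AABR07037436 at 11.8 FPKM, had -0.04 ± 0.10. Among the 140 features with no protein named 6 were called, 5 higher and 1 lower (4.29%), and among the 56 with a protein named 2, both higher (3.57%), where 7.98% of all features were called, 4.99% higher and 2.99% lower.

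Neighbouring genes gave no shared direction. Within 100000 bases, 147 of the features had a tested protein-coding gene that overlapped them or was nearest on a side, in 239 pairs. The 2 log2 fold changes had the same sign in 124 pairs (51.9%), where it was 51.2% of 17701 pairs of protein-coding genes and their neighbours. Across the 239 pairs Pearson's r was 0.039 and Spearman's rho 0.043, as a description over genes that share the 6 libraries and, in part, the same feature; over the coding pairs they were 0.052 and 0.039. For the 12 pairs that overlap on the same strand the sign was shared in 8, and for the 13 on opposite strands in 6. A neighbour was called in 24 pairs (10.04%, coding pairs 8.45%), and LOC102549726 with Hspa1b was the only pair in which both were.

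Among features that were not called themselves, some lay close to a called gene. AABR07044389, a processed_transcript on chromosome 20, was at 9.09, 8.77 and 8.67 FPKM untreated and 12.3, 17.3 and 11.9 FPKM with uric acid (0.64 ± 0.18, adjusted p 0.0612). Dxo, a decapping exoribonuclease that starts 179 bases away on the other strand, was higher by 0.66 ± 0.13 (adjusted p 0.017), about as much as its neighbour. Kantr and Tspyl2, a nucleosome assembly protein gene 8217 bases away, differed in sign, Tspyl2 being lower by a log2 fold change of -0.30 ± 0.07 (adjusted p 0.035). AABR07032135, a feature 32 bases from the kinase gene Csnk1g3 on the same strand, had 0.13 (adjusted p 0.728). Csnk1g3 was higher by 0.38 ± 0.09 (adjusted p 0.0341). Whether these rows are parts of the same transcript was not tested.

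**Figure D5:**
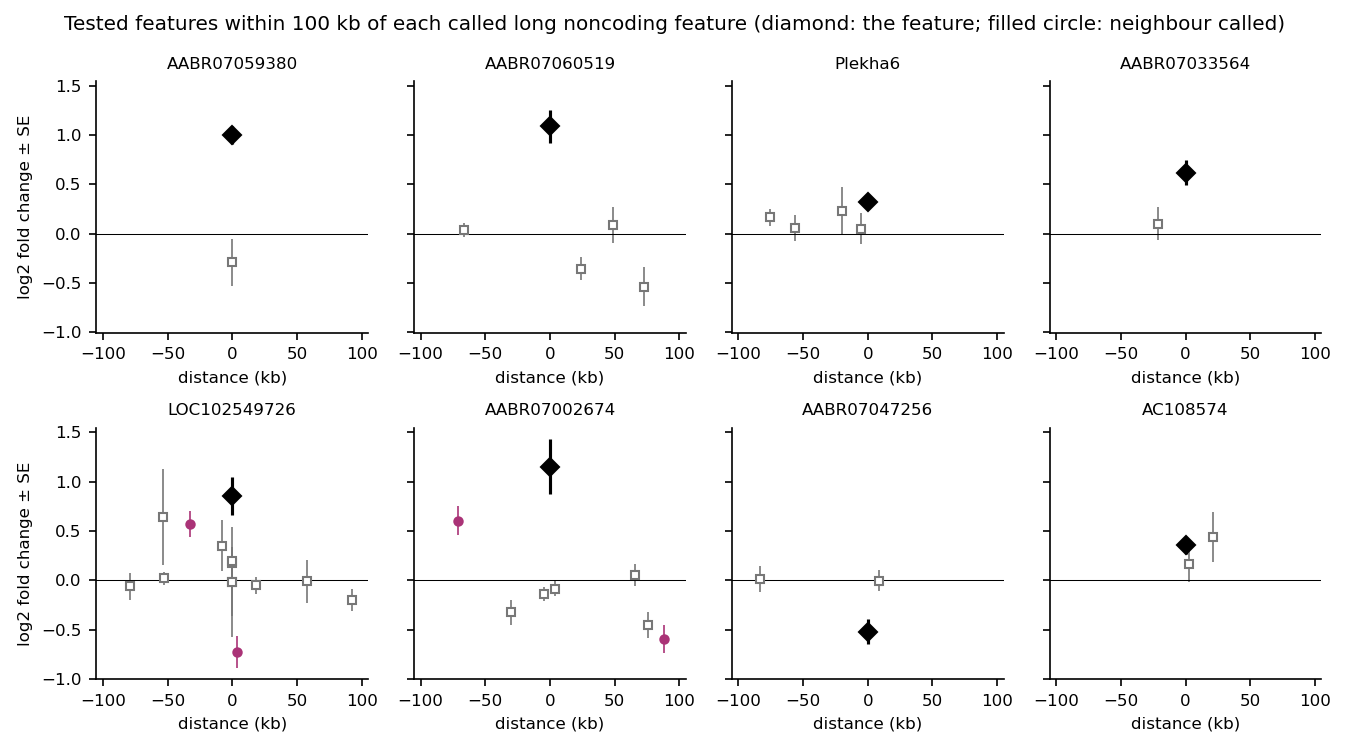
Log2 fold change with its SE of each called long noncoding feature (black diamond) and of the tested features within 100 kb, by distance in kb from the feature (negative, towards lower coordinates; 0, overlapping); filled circles are neighbours called by edgeR. Called neighbours appear only around LOC102549726 (Nfkbil1 and Hspa1b) and AABR07002674 (Eml2 and Ppp1r13l).

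For the proteins that act with or on noncoding RNA, 4 lists were read, against 4.99% of all tested features called higher and 2.99% called lower. Of 16 paraspeckle proteins, 0 were called higher and 2 lower (median log2 fold change -0.13, all tested features 0.0013). Pspc1, a core paraspeckle protein, was at 5.68, 5.45 and 5.85 FPKM untreated and 4.03, 4.14 and 3.99 FPKM with uric acid (-0.48 ± 0.10, adjusted p 0.0199), and Rbm14, an RNA-binding coactivator, at 25.2, 24.2 and 22.6 FPKM and 17.0, 14.9 and 19.7 FPKM (-0.48 ± 0.10, adjusted p 0.0225). DESeq2 called 6 of the 16 lower and 1 higher, where it called 6.3% of all features lower and 7.77% higher. Both edgeR calls were lost without untreated library 1, 2 or 3 (adjusted p 0.0656, 0.0798 and 0.0657 for Pspc1, and 0.0886, 0.0974 and 0.0505 for Rbm14) or uric acid library 1 (0.0865 and 0.0996). Sfpq, a core paraspeckle protein, had -0.23 ± 0.06 (adjusted p 0.0525) and was not called. The list did not share a direction. Nono was at 128, 128 and 130 FPKM untreated and 137, 144 and 143 FPKM with uric acid (0.13 ± 0.06, adjusted p 0.182). Hnrnpa1, Hnrnph3 and Cpsf6 were also higher without overlap of the groups and without an edgeR call.

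Of 13 snoRNP proteins 0 were called higher and 1 lower (median -0.08). Nop56, a core protein of box C/D snoRNPs, was at 67.8, 70.5 and 71.9 FPKM untreated and 53.2, 58.9 and 46.1 FPKM with uric acid (-0.41 ± 0.09, adjusted p 0.0285); every treated library was below every untreated one, and the call was lost without untreated library 1, 2 or 3 (0.069, 0.113 and 0.0864) or uric acid library 1 (0.107). One of the 13 is Dkc1, itself among the long noncoding features by its type. Of 18 proteins of the nuclear exosome, which degrades many noncoding RNAs, and its adaptors 1 was called higher and 0 lower (median 0.00). This was Zfc3h1, an adaptor for polyadenylated nuclear RNA, at 3.38, 3.07 and 2.66 FPKM untreated and 4.90, 4.03 and 4.92 FPKM with uric acid (0.60 ± 0.12, adjusted p 0.0182); it was not called without untreated library 2 or 3 (0.0871 and 0.0594) or uric acid library 1 (0.0865). Of 16 nonsense-mediated decay factors 1 was called higher, Smg9, a cofactor of the SMG1 kinase (0.39 ± 0.10, adjusted p 0.0417), and 1 lower, Rbm8a of the exon junction complex (-0.26 ± 0.07, adjusted p 0.0489), with a median of 0.02. The Smg9 call was kept without uric acid library 3 and lost in the other 5 fits with a library left out (adjusted p 0.0601 to 0.175), and the Rbm8a call was lost in all 6 (0.0608 to 0.187).

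Promoter windows of RefSeq (GRCr8, 250 bases before to 50 after the start) were found by symbol for 27 of the 196 features, 8 lncRNAs and 19 with protein-coding symbols. TGATGCAA, the core of sites bound by pairs of C/EBP and ATF factors, was searched on both strands and found in 1 window, that of Arid5b (0.795% of 33469 windows hold it). CACGTG, the E-box, which reads the same on both strands, was found in 4, among them the lncRNAs LOC102548225 and LOC102550036 (6.42% of windows). Neither string was in the window of LOC102549726 or Plekha6, the 2 called features with a window.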

How the data were processed

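Polyadenylated RNA of 6 libraries was sequenced with a strand-marking (dUTP) protocol, per the labels' protocols. HISAT2 2.0.4, cutadapt 1.9, StringTie 1.3.4d, edgeR and DESeq2 are named, without roles and without a genome build, in the submitters' processing notes. Per the file headers, the deposited values are FPKM and counts, 1 column of each per library; all columns were matched to a library. The deposited counts are estimated counts made from coverage, close to aligned bases divided by 75, so that a read pair can add up to 4. The features, lists and motifs were chosen with earlier results of these data known. Features with a mean of at least 1 FPKM (12460) were fitted in edgeR 4.0.16 (R 4.3.3; quasi-likelihood F test, TMM, two-sided, Benjamini-Hochberg over all features, threshold 0.05; common biological coefficient of variation 0.127); members of the class are printed from that fit. The SE of a log2 fold change was taken from the F value, and the intervals printed span 1.96 SE on each side. They are narrower than 95% intervals of the F test at this sample size. For LOC108351370 the interval was -1.78 to -0.03, without 0, at an unadjusted edgeR p of 0.0724. The test was also run on simulated data in which every feature had the same biological variation. That run is therefore no check of the calls made here. With 3 libraries against 3 an exact permutation test cannot go below p = 0.1, so none was used for single values. Neighbours are tested protein-coding features that overlap or are nearest on each side within 100000 bases. Features named are those called, the 10 most abundant, a list of known lncRNAs, snoRNA hosts and the called features' neighbours; others were chosen after their values were seen. Alternatives were scaling, DESeq2 1.42.0, limma 3.58.1 on log2(FPKM + 1) or log2(FPKM + 0.1), the filter, counts divided by 4, the replicate number as a block, each library left out, and features with no overlap; leaving out features with a protein named was chosen after seeing the data.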

Additional observations from a re-analysis of the deposited data

How the results depend on the processing

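The 7 higher and 1 lower calls became 15 and 6 with DESeq2 and 2 and 0 with the replicate block, under which 1.79% of all features were called higher and 0.795% lower. Lower calls were 2 with limma at either pseudocount (all features 2.31% with + 1 and 2.27% with + 0.1), beside 7 higher (4.28% and 4.25%). When every feature with a mean FPKM above 0 was fitted, lower calls were 0 (all 1.39%), beside 5 higher (2.42%). At a minimum of 5 FPKM, which kept 64 of the long noncoding features, lower calls were 3 (all 3.64%), beside 5 higher (6.76%). With 1 library left out, higher calls ran from 2 to 12 and lower calls from 0 to 2. Other scalings and counts divided by 4 kept 7 and 1 (all features 4.72% to 5.05% higher and 2.8% to 3.03% lower). All 8 called features kept their sign in every fit that included them. Of the lists, DESeq2 called 1 paraspeckle protein higher and 6 lower. With 1 library left out, paraspeckle proteins ran from 0 to 1 higher and 0 to 3 lower, snoRNP proteins from 0 to 1 lower, exosome proteins from 0 to 2 higher, and decay factors from 0 to 1 higher and 0 to 0 lower. Same-numbered libraries do not deviate together (correlations of deviations 0.069, -0.049 and -0.19), and the labels do not tie the numbers to a shared culture, so the block is only an alternative. Under it 6 of the 8 calls were lost, with adjusted p from 0.0696 to 0.127; AABR07059380 and AABR07060519 were kept. Minimums of 0.5 and 2 FPKM gave 270 and 132 long noncoding features. The share of neighbour pairs with the same sign was 51.7% at 50000 bases, 51.0% at 500000 bases and 51.4% without overlapping pairs. Features from 1 to 2 FPKM were the least precise, with a median SE of 0.302 (0.243 for all features of that level); no fit at another depth was run.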

Other observations

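Long noncoding features were unevenly spread over the chromosomes of the table. Chromosome 20, which carries the major histocompatibility region, held 21 of the 196 (10.7%) and 2.95% of all tested features, and the X chromosome held 18 (9.18%) and 3.43% of tested features. Long noncoding features within 20000 bases of each other formed 7 runs, with 15 features in all; 6 runs were on 1 strand and in 4 the log2 fold changes had 1 sign. In one of these, 2 lincRNA rows named AABR07038849 on opposite strands of the X chromosome, at 62820485 and 62827048, had log2 fold changes of 0.59 ± 0.23 and 0.73 ± 0.28 (adjusted p 0.158 and 0.137).

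Long noncoding features under 1 FPKM were also fitted, with every listed feature in edgeR. None of the 609 was called and 50 had an unadjusted p under 0.05, where 3.81% of all 19289 features were called and 18.6% had an unadjusted p under 0.05. No other tool was run on that set.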
